A study of Homo sapiens with 21 samples.

Results

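Nilotinib with a low dose of THZ531 and a high dose of THZ531 alone were compared in Hs578T cells, an established triple-negative breast cancer line of mesenchymal appearance. The 6 libraries of this comparison were chosen by their treatment labels from 21 libraries in 7 groups, and every gene that passed a filter on low counts was examined. The combination group received 1 µM nilotinib and 0.1 µM THZ531, the high-dose group received 1 µM THZ531, and each had 3 replicates. The other groups received DMSO, 0.1 µM THZ531, 1 µM nilotinib, 3.16 µM lapatinib, or 3.16 µM lapatinib with 0.1 µM THZ531, again with 3 replicates each. RNA was collected 8 h after treatment in all groups, and all libraries came from unstranded polyA selection. The replicates were derived in independent experiments according to the methods of the study, and the labels do not tie replicate numbers to experiments. The comparison asks which genes distinguish a low dose of THZ531 given with a tyrosine kinase inhibitor from a higher dose of THZ531 given alone.

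THZ531 is a covalent inhibitor of CDK12 and CDK13, which phosphorylate the C-terminal domain of RNA polymerase II while it elongates. Loss of this activity is known to shorten transcription of long genes, to favour polyadenylation inside introns and to lower DNA repair genes such as BRCA1. Nilotinib is an inhibitor of BCR-ABL that also binds DDR and PDGF receptors, and lapatinib inhibits EGFR and HER2. Immediate-early genes, such as FOS and EGR1, are short, are switched on within minutes by growth factor and stress signals through ERK and serum response factor, and have unstable transcripts, so their levels follow present transcription and decay closely.

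The deposited raw counts covered 28395 genes, of which 27745 had a name in RefSeq and held 99.98% of the counts. The total count was 101967991 to 104639800 in the 6 libraries and 97612207 to 112229052 in all 21. Correlations of log2 CPM (CPM, read counts relative to the TMM-normalized total of each library) between replicates were 0.990 to 0.994 in these groups, and all replicate pairs differed by more than sampling noise. The libraries of both groups were spread along an axis of transcript length. The mean log2 CPM of 1019 protein-coding genes with long transcripts (at least 6583 bases) minus that of 1020 with short ones (at most 2337 bases) was -0.59, -0.35 and -0.18 in combination replicates 1 to 3 and -0.19, -0.56 and -0.45 in high-dose replicates 1 to 3. It lay between -0.17 and 0.18 in DMSO and in the single treatments with 0.1 µM THZ531, lapatinib or nilotinib. Combination replicate 1 and high-dose replicate 2 therefore stood at the low end of their groups. Most of the main results that rested on them are given with and without them.

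After the filter, 16036 genes were tested by quasi-likelihood in edgeR. Compared with 1 µM THZ531, the combination had 266 genes (1.66% of those tested) lower and 144 (0.898%) higher when an adjusted p below 0.05 and an absolute log2 FC above 1 were both required. Without the fold limit, 2084 genes (13.0%) were lower and 1803 (11.2%) higher. The median log2 FC of all genes was -0.03. All 3 combination libraries lay below all 3 high-dose libraries for 2936 genes (18.3%) and above them for 2238 (14.0%). A test against a log2 FC of 1 itself (glmTreat) left 7 lower and 0 higher genes. For most called genes a change beyond the fold limit itself was therefore not established. Scaling to the 13 mRNAs encoded in mitochondria gave 327 lower and 101 higher genes, so that 23.6% of the called genes were higher in place of 35.1%. The higher genes depended on single libraries: their number was 62 without high-dose replicate 2, 269 without high-dose replicate 1, 228 without high-dose replicate 3 and 242 without combination replicate 1. With combination replicate 1 and high-dose replicate 2 both left out, 238 lower and 89 higher genes were called, of which 178 and 75 were among the calls from all 6 libraries.

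Many called genes had few counts, as 86 of the 266 lower genes and 90 of the 144 higher genes reached a mean log2 CPM of 1 over the 6 libraries. The lower genes mostly stood below DMSO under both treatments. Of the 266, 203 had mean levels below DMSO in both groups and lower still in the combination, 33 were above DMSO at the high dose but below it in the combination, and 30 were above DMSO in both. The higher genes were mostly those that the combination took above DMSO. Of the 144, 78 were above DMSO in the combination and below it at the high dose, 54 were above DMSO in both groups, and 12 were below it in both. These are mean levels set side by side and not tests against DMSO.

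**Figure D1:**
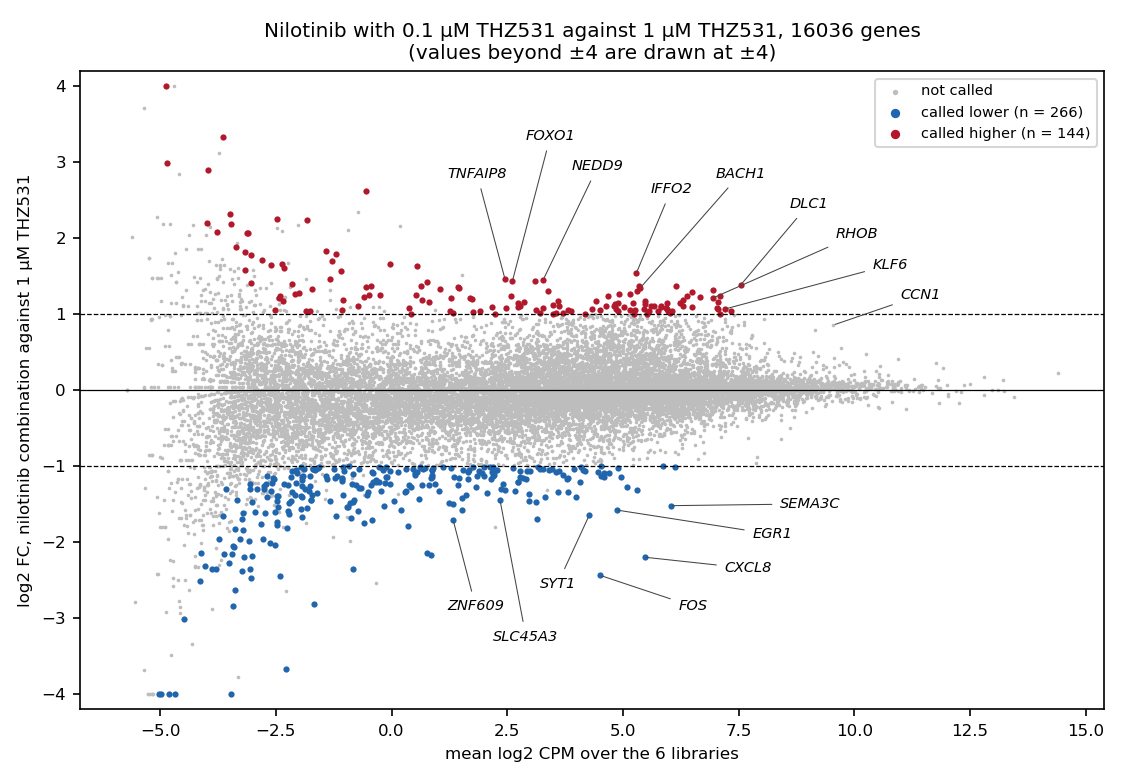
Each point is 1 of the 16036 genes, with its mean log2 CPM over the 6 libraries on the x axis and its log2 FC of the combination against 1 µM THZ531 on the y axis; dashed lines mark a log2 FC of -1 and 1. FOS and CXCL8 stand furthest from 0 among well-expressed genes, the called genes at high levels are mainly higher ones, and the widest spread is at low counts.

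Immediate-early genes split in 2 directions. FOS, EGR1 and FOSB were called lower in the combination and RHOB and KLF6 higher. Without the fold limit 4 of the 33 members (12.1%) were lower and 15 (45.5%) higher, against 13.0% and 11.2% of all genes. Their median log2 FC was 0.28, against -0.03 for all genes. FOS (NCBI gene 2353, chr14:75278828-75282230, plus strand, GRCh38), which encodes a subunit of the AP-1 transcription factor, stood at 11, 10.38 and 8.68 CPM in the combination libraries and at 52.1, 75.4 and 35.5 CPM in the high-dose libraries. Every combination library was far below every high-dose library. Its log2 FC was -2.44 ± 0.20 (standard error from the edgeR fit, as for all log2 FC values here; n = 3 against 3, adjusted p = 1.01e-07), the largest fall among genes whose log2 CPM averaged 1 or more and whose groups did not overlap. FOS was at 1.34 ± 0.0781 CPM (SD, n = 3) in DMSO, so both groups were above DMSO and the combination was nearer to it.

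EGR1 (NCBI gene 1958, chr5:138465479-138469303, plus strand), a zinc finger factor induced by serum response factor, stood at 16.5, 18.6 and 17.1 CPM in the combination and at 62.01, 65.5 and 28.3 CPM at the high dose. High-dose replicate 3 was well below the other two but above all combination libraries, and the log2 FC was -1.58 ± 0.25 (adjusted p = 8.63e-05). Its mean level was 5.73 CPM in DMSO and 6.41 CPM with nilotinib alone. FOSB, another AP-1 subunit, stood at 4.44, 5.62 and 6.499 CPM in the combination and at 12.3, 16.2 and 6.19 CPM at the high dose. Its groups overlapped, with high-dose replicate 3 inside the combination's range, and its log2 FC was -1.07 ± 0.24 (adjusted p = 0.00248).

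RHOB (NCBI gene 388, chr2:20447074-20449440, plus strand) encodes a small GTPase induced by growth factors and DNA damage and has a single exon. It stood at 176, 191 and 198 CPM in the combination and at 91.3, 65.2 and 87.2 CPM at the high dose. The groups were widely apart, with a log2 FC of 1.21 ± 0.10 (adjusted p = 1.22e-07), and the level in DMSO was 36.6 ± 0.475 CPM. KLF6, a zinc finger transcription factor, stood at 208, 218 and 220 CPM in the combination and at 127, 79.9 and 102 CPM at the high dose, with a log2 FC of 1.07 ± 0.11 (adjusted p = 1.22e-06). High-dose replicate 2 was the lowest library for both genes, and without it the log2 FC was 1.08 for RHOB and 0.92 for KLF6. JUN, the partner of FOS in AP-1, moved the opposite way to FOS, with a log2 FC of 0.90 ± 0.12 (adjusted p = 1.33e-05). CCN1 and CCN2, secreted matrix-associated proteins, had log2 FC values of 0.86 ± 0.11 and 0.80 ± 0.09, while NR4A1 (0.00 ± 0.18), ATF3 (0.14 ± 0.14) and JUNB (0.10 ± 0.06) did not pass the test. Without high-dose replicate 2, 3 members were lower and 13 higher without the fold limit, and 2 were called lower and 1 higher. With combination replicate 1 left out as well, 2 were lower and 15 higher, and the calls were again 2 and 1. Without combination replicate 1 alone, 2 were called lower and 2 higher. FOS and EGR1 kept their calls in these settings, and FOSB lost its call.

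**Figure D2:**
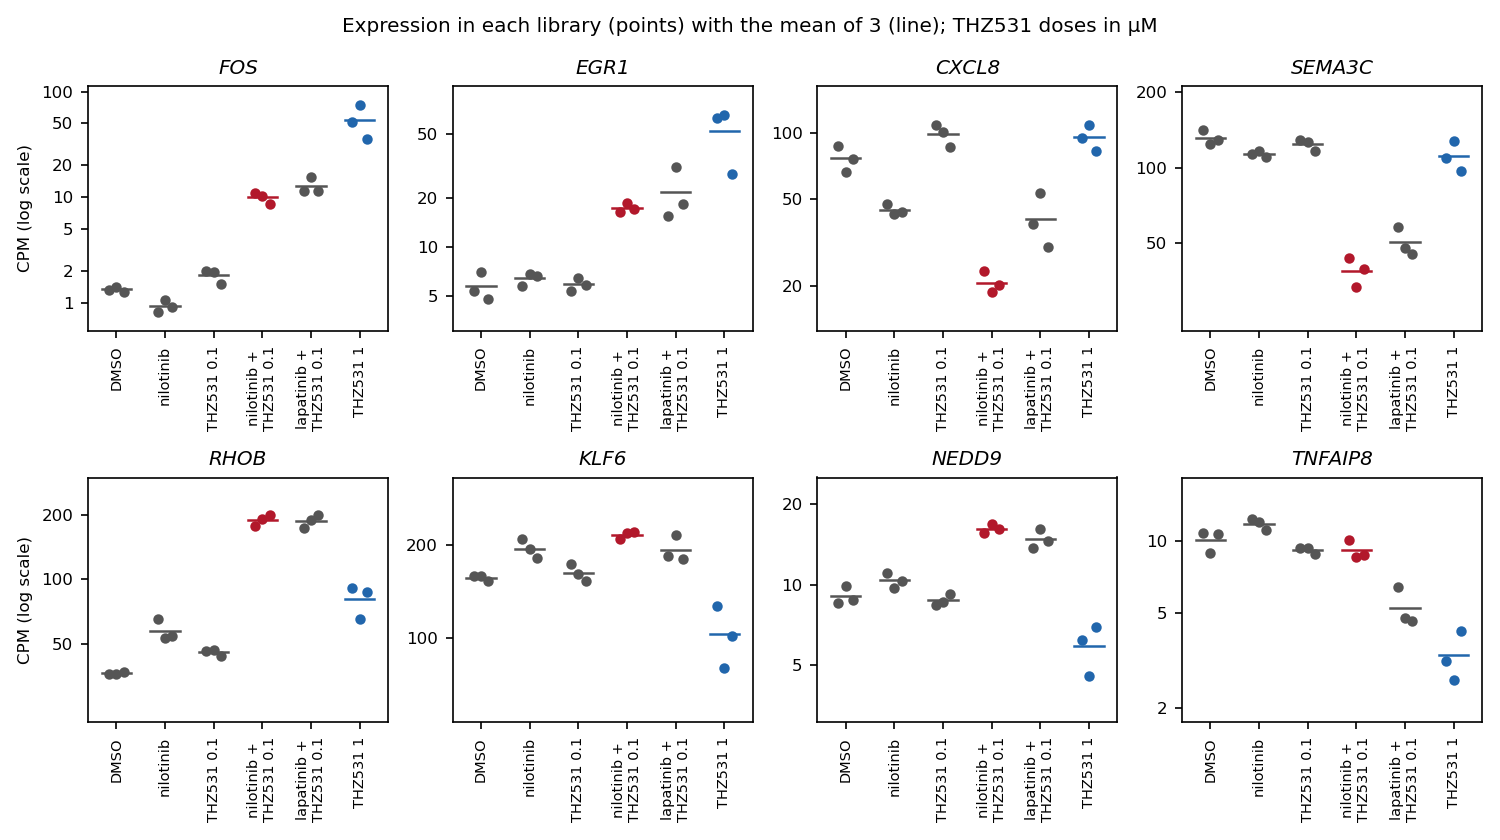
CPM on a log scale in each library (points) of DMSO, nilotinib, 0.1 µM THZ531, nilotinib with 0.1 µM THZ531 (red), lapatinib with 0.1 µM THZ531 and 1 µM THZ531 (blue), with the mean of 3 libraries as a line. FOS, EGR1, CXCL8 and SEMA3C are lower and RHOB, KLF6, NEDD9 and TNFAIP8 higher in every red than in every blue point.

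The 250 bases before the start of 4 of these genes are shown, since 3 (FOS, EGR1 and CXCL8) gave large falls and 1 (RHOB) a clear rise. The sequences are RefSeq's, of GRCh38.p14, plus strand, at chr14:75278578-75278827 for FOS, chr5:138465229-138465478 for EGR1, chr4:73740319-73740568 for CXCL8 and chr2:20446824-20447073 for RHOB. Capitals mark matches on either strand to a TATA box core (TATAAA), an E-box (CACGTG), an AP-1 site (TGANTCA) or a CArG box, the element bound by serum response factor; no match overlapped another.
FOS: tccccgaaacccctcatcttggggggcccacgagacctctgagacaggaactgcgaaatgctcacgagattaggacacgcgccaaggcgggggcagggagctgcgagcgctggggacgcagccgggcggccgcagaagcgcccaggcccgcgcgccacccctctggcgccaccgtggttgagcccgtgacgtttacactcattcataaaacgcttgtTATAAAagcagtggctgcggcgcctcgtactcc
EGR1: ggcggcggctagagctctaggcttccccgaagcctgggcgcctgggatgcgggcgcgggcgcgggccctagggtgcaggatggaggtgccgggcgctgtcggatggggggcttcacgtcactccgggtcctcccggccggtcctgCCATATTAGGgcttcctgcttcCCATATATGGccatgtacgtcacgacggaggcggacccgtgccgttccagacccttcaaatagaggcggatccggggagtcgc
CXCL8: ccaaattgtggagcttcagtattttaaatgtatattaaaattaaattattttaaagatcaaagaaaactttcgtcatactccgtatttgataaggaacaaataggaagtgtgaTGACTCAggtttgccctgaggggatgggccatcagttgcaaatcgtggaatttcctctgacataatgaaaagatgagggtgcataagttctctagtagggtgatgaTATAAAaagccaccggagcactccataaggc
RHOB: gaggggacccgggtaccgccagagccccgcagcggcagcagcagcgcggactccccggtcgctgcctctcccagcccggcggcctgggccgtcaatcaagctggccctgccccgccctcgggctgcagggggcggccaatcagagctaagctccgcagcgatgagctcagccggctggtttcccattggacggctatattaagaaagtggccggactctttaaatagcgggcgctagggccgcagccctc
A TATA box core stood in FOS and CXCL8, an AP-1 site in CXCL8 and 2 CArG boxes in EGR1, and none of the 4 motifs was in the RHOB window. The CArG box was added after these promoters had been seen. Of the 12271 tested genes with such a window, 6.19% held the TATA box core, 8.44% the E-box, 4.35% the AP-1 site and 1.04% the CArG box. Among the 189 called lower the shares were 8.47%, 7.41%, 5.29% and 1.59%, and among the 101 called higher 5.94%, 8.91%, 2.97% and 0.99%, as a description with no test.

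Genes of NF-kB signalling and cytokines were lower more often than they were higher. Of 23 tested members, 4 were called lower and 0 higher, and the median log2 FC was -0.36. Without the fold limit 9 (39.1%) were lower and 4 (17.4%) higher, against 13.0% and 11.2% of all genes. CXCL8 (NCBI gene 3576, chr4:73740569-73743716, plus strand), the neutrophil-attracting chemokine interleukin-8, stood at 23.4, 18.7 and 20.2 CPM in the combination and at 94.7, 109 and 82.5 CPM at the high dose. The ranges were far apart, and the log2 FC was -2.20 ± 0.17 (adjusted p = 5.01e-08). CXCL8 was at 76.6 ± 10.44 CPM in DMSO and at 44.5 CPM with nilotinib alone, so the combination was below both and the high dose was not below DMSO. The other called members had few counts: TRAF1, an adaptor of TNF receptors (log2 FC -1.33 ± 0.31, adjusted p = 0.00294), PTGS2, the inducible cyclooxygenase (-1.14 ± 0.28, adjusted p = 0.00506), and NFKBIZ, a nuclear IkB protein (-1.05 ± 0.29, adjusted p = 0.0103), each had a mean log2 CPM under 1. TRAF1 lost its call when only the compared groups were fitted and, at -0.93, without combination replicate 3, and PTGS2 and NFKBIZ when combination replicate 1 and high-dose replicate 2 were left out, which left 2 called members. NFKBIZ also fell short of the fold limit without combination replicate 1 (-0.88) or high-dose replicate 1 (-0.91). IL11 (-0.84 ± 0.14), ICAM1 (-0.84 ± 0.13) and NFKB2 (-0.71 ± 0.11) were lower short of the fold limit, whereas TNFAIP3, the feedback inhibitor A20, was higher (0.67 ± 0.13). IL6 did not pass the test (-0.28 ± 0.17, adjusted p = 0.278).

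The 12 largest falls, ranked among genes averaging 1 or more log2 CPM whose groups did not overlap, included FOS, CXCL8 and EGR1. Of the others, SYT1, the calcium sensor of vesicle release, stood at 12.6, 9.04 and 11.2 CPM in the combination and at 34.4, 38.1 and 30.6 CPM at the high dose (log2 FC -1.65 ± 0.10, adjusted p = 2.25e-08). SEMA3C, a secreted semaphorin, stood at 43.7, 33.5 and 39.4 CPM and at 110, 128 and 96.9 CPM (-1.52 ± 0.11, adjusted p = 2.46e-08). In neither gene did the groups overlap, and the combination was below the DMSO mean, which was 27.5 CPM for SYT1 and 132 CPM for SEMA3C. BRSK1, a kinase of neuronal polarity, and EVI2A, which lies within an intron of NF1, had log2 FC values of -1.49 ± 0.13 and -1.501 ± 0.15. Since counting did not use strand, reads of EVI2A and NF1 cannot be told apart.

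ZNF609 (chr15:64459578-64686068, plus strand), a long zinc finger gene that also gives a well-known circular RNA, stood at 0.951, 1.42 and 1.90 CPM in the combination and at 5.91, 3.47 and 4.61 CPM at the high dose. It was at 31.3 CPM in DMSO, so it was low under both treatments and lowest in the combination (log2 FC -1.71 ± 0.27, adjusted p = 8.64e-05). SLC45A3, a sugar and proton carrier (-1.45 ± 0.11), SLC2A10, a glucose transporter (-1.46 ± 0.12), and LOC100129034, a noncoding RNA that overlaps PSMB7 (-1.70 ± 0.20), showed the same order of DMSO, high dose and combination in their means. Their means were 16.0, 22.2 and 37.8 CPM in DMSO, 8.38, 13.1 and 16.1 CPM at the high dose and 3.07, 4.75 and 4.97 CPM in the combination, for SLC45A3, SLC2A10 and LOC100129034 in turn. The 12 kept their calls in the 17 alternatives recomputed gene by gene, but under glmTreat FOS, CXCL8, SYT1 and SEMA3C were the ones of the 12 among the 7 genes left.

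Zinc finger genes, most of them DNA-binding regulators of transcription, were called mainly lower. Of 489 tested genes with a ZNF symbol, 21 were called lower and 1 (ZNF670) higher, and 91 (18.6%) were lower and 60 (12.3%) higher without the fold limit, against 13.0% and 11.2% of all genes. Their median log2 FC was -0.11, beside a median of -1.51 for the combination and -1.44 for the high dose against DMSO, which share the DMSO libraries. ZNF440 had 0.227, 0.216 and 0.275 CPM in the combination, 0.882, 0.440 and 0.941 CPM at the high dose and a mean of 6.52 CPM in DMSO (log2 FC -1.65 ± 0.23, adjusted p = 2.93e-05). ZNF404 had 0 counts in all 3 combination libraries and 6, 4 and 4 counts at the high dose, which gives no reliable fold, and ZNF396 was called on few counts and lost the call without high-dose replicate 1. Without high-dose replicate 2, 35 ZNF genes were called lower and 1 higher, and 103 were lower and 30 higher without the fold limit. Without combination replicate 1, 22 were called lower and 4 higher, and 69 were lower and 68 higher without the fold limit, at a median of -0.06. ZNF670 (1.00 ± 0.14) fell short of the fold limit in several alternatives, among them leaving out high-dose replicate 2 (0.83).

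Genes for long noncoding RNA (lncRNA) were called lower in 34 of 1405 (2.42%, against 1.66% of all genes) and higher in 13 (0.925%, against 0.898%). Of 314 LINC genes, 8 were called lower and 0 higher, and of 541 antisense genes 11 lower and 7 higher. Without the fold limit both lists were below the shares of all genes (13.0% lower and 11.2% higher). There 29 LINC genes (9.2%) were lower and 10 (3.2%) higher, and 40 antisense genes (7.4%) were lower and 18 (3.3%) higher. Both medians (-0.14 and -0.09) were near that of all genes, and LINC02606, for example, was called at few counts, with 0.0432, 0.0108 and 0.0550 CPM in the combination and 0.126, 0.189 and 0.150 CPM at the high dose. With combination replicate 1 and high-dose replicate 2 left out, 3 LINC genes were called lower and 1 higher, and 4 antisense genes lower and 6 higher. Antisense genes share reads with their partners here because strand was not recorded. Of 40 tested replication-dependent histone genes, whose mRNAs normally lack polyA tails, H3C2 was called lower (0.605, 0.551 and 0.264 CPM against 1.05, 1.18 and 1.16 CPM, log2 FC -1.25 ± 0.30, adjusted p = 0.00418, and -0.96 without combination replicate 3). Without the fold limit 5 of the 40 (12.5%) were lower and 0 higher, against 13.0% and 11.2% of all genes. Of 147 snoRNA and scaRNA genes, SNORD11, which lies inside NOP58, was called higher (1.04 ± 0.21), a call lost under upper-quartile and mitochondrial scaling and without combination replicate 2, combination replicate 3 or high-dose replicate 2.

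Of the 12 largest rises by the same rule, IFFO2, an intermediate filament family gene, had the largest, at 58.1, 71.55 and 74.3 CPM in the combination and 28.5, 15.7 and 25.9 CPM at the high dose (log2 FC 1.54 ± 0.17, adjusted p = 1.82e-06). NEDD9, a scaffold of focal adhesion signalling, stood at 15.7, 16.8 and 16.1 CPM and at 6.21, 4.56 and 6.92 CPM (1.46 ± 0.12, adjusted p = 8.87e-08). DLC1, a GTPase-activating protein, was the most strongly expressed of the 12, at 251, 326 and 350 CPM and at 148, 80.2 and 127 CPM (1.39 ± 0.17, adjusted p = 7.41e-06). In each of the 3 genes no combination library overlapped a high-dose library, and high-dose replicate 2 was the lowest.

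NET1, a guanine nucleotide exchange factor (1.37 ± 0.14), TNFAIP8, an NF-kB-induced regulator of cell death (1.46 ± 0.14), and RNF152, a lysosomal ubiquitin ligase (1.34 ± 0.18), were also among the 12. TNFAIP8 was at 10.1 CPM in DMSO, 9.15 CPM in the combination and 3.32 CPM at the high dose, so the high dose alone stood well below DMSO. The transcriptional regulators among them were FOXO1, the insulin-regulated forkhead factor, at 8.955, 10.43 and 11.95 CPM against 4.65, 2.01 and 4.90 CPM (1.44 ± 0.21, adjusted p = 3.63e-05), BACH1, a repressor of antioxidant genes (1.35 ± 0.15), and PPARGC1B, a coactivator of mitochondrial biogenesis (1.44 ± 0.22). MB21D2 (1.37 ± 0.12) stood at 112, 111 and 120 CPM against 51.8, 31.7 and 49.5 CPM and at 27.7 CPM in DMSO. The remaining 2 of the 12 carry NCBI gene identifiers 101929519 and 105376779, which had no name in the RefSeq table.

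High-dose replicate 2 was the lowest of the 3 high-dose libraries in 89 of the 90 higher genes that averaged 1 or more log2 CPM, and combination replicate 1 was the lowest of its group in 77. Both libraries also had the lowest values on the axis of long against short transcripts, and its part in these calls was not tested. All of the 12 kept their calls without high-dose replicate 2, where IFFO2, NEDD9, DLC1 and FOXO1 had log2 FC values of 1.32, 1.30, 1.17 and 1.13. Among the 86 lower genes at this level, high-dose replicate 2 was the highest of its group in 68, and FOS and CXCL8 had log2 FC values of -2.13 and -2.09 without it.

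Genes of TGF-beta signalling held a large share of higher members. Of 21 tested, 12 (57.1%) were higher and 1 (4.76%) lower without the fold limit, against 11.2% and 13.0% of all genes. The median log2 FC was 0.31, although 0 were called higher at a log2 FC of 1. SKI, a SMAD corepressor, stood at 151, 227 and 258 CPM in the combination and at 130, 75.2 and 125 CPM at the high dose (0.94 ± 0.19, adjusted p = 0.00108). SMAD7, the inhibitory SMAD (0.92 ± 0.16), and BAMBI, a decoy receptor (0.93 ± 0.11), were higher. The called lower member, GDF6, had at most 0.472 CPM in any of the 6 libraries. Without high-dose replicate 2, 9 members were higher and 2 lower, as with combination replicate 1 left out too.

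Feedback regulators of ERK were higher in 9 of 25 and lower in 3 without the fold limit, against 11.2% and 13.0% of all genes. SPRED2, an inhibitor of RAF activation, stood at 53.4, 68.7 and 74.2 CPM in the combination and at 36.5, 19.9 and 36.8 CPM at the high dose (log2 FC 1.08 ± 0.17, adjusted p = 0.000107), and DUSP5, a nuclear ERK phosphatase, at 14.7, 17.5 and 16.0 CPM and at 9.385, 6.73 and 7.96 CPM (1.00 ± 0.13, adjusted p = 1.41e-05). Neither pair of groups overlapped. DUSP6, the cytoplasmic ERK phosphatase, differed little (0.13 ± 0.09, adjusted p = 0.352), and ETV1, an ETS factor, was lower (-0.79 ± 0.10). Both calls were lost without high-dose replicate 2, where 6 members were higher, and both fell short of the fold limit under mitochondrial scaling.

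Components of pause release and the transcriptional CDKs were higher in 7 of 25 (28.0%) and lower in 2 (8.0%). The shares of all genes were 11.2% and 13.0%. Without high-dose replicate 2 the counts were 4 and 3, at a median of 0.03 in place of 0.11, and without combination replicate 1 they were 10 and 2. CCNT2 (1.00 ± 0.16) and CCNT1 (0.70 ± 0.15), cyclins of the CDK9 kinase P-TEFb, and CCNK (0.58 ± 0.12), the cyclin of CDK12 and CDK13, were higher. CDK12 itself, the target of THZ531, was lower, at 14.1, 16.8 and 18.7 CPM in the combination against 29.6, 21.1 and 25.3 CPM at the high dose and 51.9 ± 4.89 CPM in DMSO (log2 FC -0.61 ± 0.14, adjusted p = 0.00322). PCF11, a long gene for a polyadenylation factor, was also lower (-0.49 ± 0.16, adjusted p = 0.0277).

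The homologous recombination and Fanconi anemia genes, a group long tied to CDK12, were called in neither direction. Of 37 tested, 6 (16.2%) were lower and 2 (5.4%) higher without the fold limit, and the median was -0.03. The shares of all genes were 13.0% and 11.2%. BRCA1 (chr17:43044295-43170327, minus strand) stood at 8.26, 7.02 and 8.48 CPM in the combination, at 11.7, 13.6 and 9.26 CPM at the high dose and at 21.5 ± 1.56 CPM in DMSO. The groups did not overlap and the log2 FC was -0.54 ± 0.12 (adjusted p = 0.00211), which missed the threshold when only the compared groups were fitted. RAD54L (-0.82 ± 0.09) and UBE2T (-0.78 ± 0.12) had the largest falls. Of 35 DNA replication and E2F genes, 9 (25.7%) were lower and 3 higher, led by GINS1 (5.50, 4.57 and 6.499 CPM against 11.8, 12.8 and 10.1 CPM, log2 FC -1.07 ± 0.12, adjusted p = 2.75e-06) and E2F1 (-0.68 ± 0.10, adjusted p = 4.98e-05). GINS1 fell short of the fold limit without high-dose replicate 2 or combination replicate 2.

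Several other lists held shares above those of all genes (13.0% lower and 11.2% higher) without many calls. Splicing regulators were lower in 9 of 24 and higher in 5, with SR proteins such as SRSF3 lower (-0.53 ± 0.08) and the SR protein kinase CLK1 higher (0.91 ± 0.12). Cilium and BBSome genes were lower in 9 of 29 and higher in 0, led by BBS10, a chaperonin-like protein (-0.70 ± 0.12), but in 4 without high-dose replicate 2. Mitochondrial ribosomal protein genes were higher in 20 of 76 and lower in 2, at a median of 0.12. One of the latter, MRPL45, was called lower on 244 counts in high-dose replicate 2, beside 1 to 6 counts in the other 5 libraries, and its adjusted p was 0.289 without that library. Targets of p53 went both ways, with MDM2 (-0.80 ± 0.14) and CDKN1A (-0.37 ± 0.09) lower and GADD45A (0.69 ± 0.13) higher.

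Among single members, BCL2L2, which encodes the survival protein BCL-w and overlaps a readthrough gene with PABPN1, was called lower (8.71, 9.36 and 8.62 CPM against 17.6, 24.8 and 15.6 CPM, -1.12 ± 0.13, adjusted p = 3.38e-06), but fell short of the fold limit without high-dose replicate 2 (-0.90). MCL1, a short-lived survival protein, was higher (0.56 ± 0.12, adjusted p = 0.0015), and BCL2A1 was called higher on at most 0.821 CPM. TFEB, a regulator of lysosomal genes, was called lower at under 1 CPM (-1.13 ± 0.23) and fell short of the fold limit without combination replicate 3 or high-dose replicate 1.

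Several groups had shares near or below those of all genes (11.2% higher and 13.0% lower). Proteasome genes were higher in 3 of 30 (10.0%) and lower in 0, and unfolded protein response genes lower in 2 of 20 (10.0%). Cytosolic ribosomal protein genes were lower in 1 of 81, and mitochondrially encoded mRNAs changed in 0 of 13. ABCG2, the drug efflux transporter that nilotinib and lapatinib also inhibit, stood at 32.0, 26.7 and 24.7 CPM in the combination and at 27.1, 29.5 and 28.7 CPM at the high dose (log2 FC -0.03 ± 0.12, adjusted p = 0.897). The kinase target of nilotinib, ABL1, was higher (0.84 ± 0.17, adjusted p = 0.000713). Collagen COL1A1 ranged from 7891 to 13390 CPM in the combination and from 11280 to 12520 CPM at the high dose and did not pass the test (-0.09 ± 0.21, adjusted p = 0.837). Heat shock genes, in contrast, were higher in 5 of 16 (31.25%) and lower in 0. ATF4 response genes were also above the 11.2%, as they were higher in 7 of 36 (19.4%) and lower in 1. Without high-dose replicate 2, 3 heat shock and 3 ATF4 response genes were higher, and 2 of the latter with combination replicate 1 left out as well.

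Since the combination contains nilotinib and the high dose does not, the genes that nilotinib alone changed against DMSO were followed. Neither of those groups enters the comparison of the combination with the high dose. Nilotinib alone gave 16 lower genes (0.0998% of those tested) and 39 higher (0.243%) at an adjusted p-value under 0.05 without a fold limit. Between the combination and the high dose, 9 of the 16 lower genes passed as lower and 1 as higher, with a median log2 FC of -0.43. The shares of all genes there were 13.0% lower and 11.2% higher. CXCL8, ADAMTS5 (a cartilage-degrading protease, -1.13 ± 0.19) and TNFRSF11B (the decoy receptor osteoprotegerin, -1.02 ± 0.14) were called lower, although TNFRSF11B fell short of the fold limit in several alternatives (-0.87 without high-dose replicate 2) and ADAMTS5 without combination replicate 1 or high-dose replicate 1. CYP1B1, a target of the aryl hydrocarbon receptor, stood at 7.98, 7.46 and 9.78 CPM in the combination, at 16.6, 13.6 and 13.9 CPM at the high dose, at 8.45 CPM with nilotinib alone and at 14.5 CPM in DMSO (-0.81 ± 0.11, adjusted p = 2.43e-05). No combination library overlapped a high-dose library. THBS1, the matrix protein thrombospondin-1, had a mean of 170 ± 33.5 CPM in the combination and 329 ± 44.6 CPM at the high dose (-0.95 ± 0.16, adjusted p = 0.000141), beside 466 CPM in DMSO. The counts for nilotinib alone were unstable, at 1 to 14 lower and 6 to 63 higher genes with 1 library left out.

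Of the 39 genes higher with nilotinib alone, 17 (43.6%) were higher and 5 (12.8%) lower in the combination than at the high dose, against 11.2% and 13.0% of all genes. Their median was 0.20, and RHOB was called higher. ATF4, the central factor of the integrated stress response, stood at 121, 122 and 127 CPM against 79.3, 71.4 and 73.8 CPM (0.72 ± 0.20, adjusted p = 0.0101). Its mean was 81.4 CPM in DMSO and 165 CPM with nilotinib alone. The latter was raised by nilotinib replicate 1, as ATF4 stood at 261, 115 and 118 CPM in replicates 1 to 3. Its targets CEBPG (1.17 ± 0.20, adjusted p = 0.000184) and CHAC1 (1.197 ± 0.31, adjusted p = 0.00761) were called higher. Without high-dose replicate 2, CHAC1 missed the threshold and CEBPG fell just short of the fold limit (0.999), and without combination replicate 1 as well ATF4 missed the threshold. MAP2K6, the p38 MAP kinase kinase, was at 2.88 CPM with nilotinib alone and 1.09 CPM in DMSO but did not pass the test between the combination and the high dose (0.01 ± 0.21, adjusted p = 0.985), nor did CORO2B, an actin-binding coronin (-0.17 ± 0.14, adjusted p = 0.454). TXNIP, a glucose-responsive inhibitor of thioredoxin, was at 10.9 CPM with nilotinib alone and 38.1 CPM in DMSO, and at 37.2, 49.5 and 55.6 CPM in the combination against 74.1, 58.5 and 84.2 CPM at the high dose (-0.61 ± 0.32, adjusted p = 0.190).

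The change due to nilotinib alone was then taken off by testing the combination less nilotinib against the high dose less DMSO. This gave 206 lower genes (1.28%) and 153 higher (0.954%). Mitochondrial scaling turned the balance, with 122 lower and 240 higher. The higher count was 51 without high-dose replicate 2, 90 without combination replicate 3, 283 without combination replicate 1 and 292 without high-dose replicate 1. Of the 266 genes lower in the combination than at the high dose, 175 passed this test as lower. Of the 144 higher, 98 passed as higher, and 145 lower and 80 higher genes were past the fold limit as well. These genes were chosen from the same combination and high-dose libraries that enter this test. Passing in the same direction is therefore favoured by the choice itself, and the counts do not show independently that the differences remain without nilotinib. FOS (-1.91, adjusted p = 0.000474), EGR1 (-1.74, adjusted p = 0.00266), CXCL8 (-1.42, adjusted p = 0.000461) and SYT1 (-1.37, adjusted p = 2.20e-05) kept log2 differences beyond 1, as did NEDD9 (1.26, adjusted p = 9.03e-05) and DLC1 (1.40, adjusted p = 0.000800). For CYP1B1 (-0.03, adjusted p = 0.939), ADAMTS5 (-0.30, adjusted p = 0.535), CHAC1 (-0.05, adjusted p = 0.965) and CEBPG (0.40, adjusted p = 0.414) no difference was detectable once nilotinib was taken off, and RHOB was reduced to 0.56 (adjusted p = 0.0110). For CHAC1 and CEBPG the nilotinib mean taken off was raised by replicate 1. CHAC1 stood at 19.9, 6.54 and 7.10 CPM and CEBPG at 86.2, 41.2 and 45.2 CPM with nilotinib alone. Neither passed edgeR's test of nilotinib against DMSO (adjusted p = 0.0727 and 0.0907).

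The lapatinib combination, which has the same low dose of THZ531 with another kinase inhibitor, differed from the nilotinib combination in few called genes. Between the combinations, 8 genes (0.0499%) were lower and 2 (0.0125%) higher with nilotinib, with 2006 genes at an unadjusted p under 0.05, and 1 lower and 0 higher when only those groups were fitted. RHOB, at 187 CPM in the lapatinib combination, and FOS, at 12.9 CPM, had log2 differences of 0.01 ± 0.10 and -0.36 ± 0.19 between the combinations and passed no test. CXCL8 was lower with nilotinib than with lapatinib (20.8 against 40.5 CPM, log2 difference -0.96 ± 0.16, adjusted p = 0.00449), as was EVI2A (-0.79 ± 0.16, adjusted p = 0.0134), and TNFAIP8 was higher (9.15 against 5.28 CPM, 0.79 ± 0.14, adjusted p = 0.00621). CDKN1A, which encodes the CDK inhibitor p21, was also lower with nilotinib (22.8 against 34.7 CPM, -0.61 ± 0.09, adjusted p = 0.00216). PTGS2 was lower with nilotinib by a log2 difference of -1.41 ± 0.28 (adjusted p = 0.0147), at 0.613 against 1.63 CPM.

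The genes that 0.1 µM THZ531 alone changed against DMSO also differed between the combination and the high dose. Of 691 genes lower with the low dose (4.31% of those tested), 286 (41.4%) passed as lower and 10 as higher between the combination and the high dose, with a median log2 FC of -0.31. Of 286 genes higher with the low dose (1.78%), 131 (45.8%) were higher and 23 lower, with a median of 0.21. The corresponding shares of all genes were 13.0% and 11.2%. The counts of genes changed by the low dose depended on single libraries, at 351 to 477 lower and 114 to 156 higher genes with 1 library left out.

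By gene structure, genes with few exons were called higher more often in the calls from all 6 libraries. Shares by exon number and medians of length were not recomputed without high-dose replicate 2, where 62 genes were called higher in place of 144. Among tested protein-coding genes, 13 of 491 with 1 exon in the longest transcript (2.65%) and 22 of 1000 with 2 exons (2.2%) were called higher, against 50 of 6944 with 3 to 10 exons (0.720%) and 32 of 5182 with more (0.618%). The shares called lower were 1.22%, 1.2%, 1.84% and 1.18% in the same order. The median gene span was 52397 bases for the 117 higher genes, 32985 bases for the 209 lower genes and 31226 bases for all 13745, and the median longest transcript was 5065, 4233 and 3863 bases. Among biotypes, 8 of 24 snRNA genes (33.3%) were called lower and 1 (4.17%) higher, against 1.66% and 0.898% of all genes. The class was noticed after its values were seen, and 5 and 0 were called without high-dose replicate 2. The libraries were polyA selected, so these counts do not give total snRNA levels. RNU12, the U12 RNA of the minor spliceosome, stood at 0.745, 0.475 and 0.649 CPM in the combination and at 1.30, 2.12 and 1.72 CPM at the high dose (log2 FC -1.46 ± 0.29, adjusted p = 0.00117). Its DMSO mean was 0.00269 CPM.

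Mesenchymal markers were high in both groups. The summed level of 10 mesenchymal markers was 24320 to 31350 CPM in the combination and 29140 to 31710 CPM at the high dose, and VIM, vimentin, stood at 9430 to 9708 and 9566 to 9721 CPM. The 8 epithelial markers summed to 149 to 167 and 141 to 148 CPM, the 3 hormone receptor genes to 21.3 to 28.2 and 27.5 to 31.0 CPM, and the 5 fibroblast markers to 413 to 455 and 405 to 446 CPM. The 5 blood markers summed to 1.29 to 2.03 and 2.05 to 2.37 CPM. The 4 endothelial markers summed to 2.25 to 2.61 and 1.08 to 1.69 CPM, and KDR, the VEGF receptor, was called higher in the combination (1.91, 2.30 and 2.43 CPM against 1.17, 0.681 and 0.931 CPM, log2 FC 1.26 ± 0.21, adjusted p = 0.000180).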

How the data were processed

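Raw gene counts deposited by the authors were used as they were. Per the labels, reads were aligned with HISAT2 2.1.0 and counted with featureCounts on GRCh38; which annotation was used, and if fragments or ends were tallied, is not given in the sources used here. Between 61.6% and 66.4% of counts from 1 to 20 were even numbers, and halved counts were tried as an alternative. All 21 libraries were fitted together as 7 groups with edgeR 4.0.16 (R 4.3.3), after filterByExpr and TMM normalization, and genes were called by the quasi-likelihood test at a Benjamini-Hochberg adjusted p-value under 0.05 over 16036 genes and an absolute log2 FC above 1. For nilotinib or 0.1 µM THZ531 against DMSO no fold limit was set. CPM values use TMM library sizes. Standard errors are the log2 FC divided by the square root of F.

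Named genes were the 12 largest rises and falls at a mean log2 CPM of at least 1 with groups that did not overlap, up to 4 called members and the first member of each list, and the 6 largest changes of nilotinib alone. Other members were named after their values were seen. Values of some genes that the rule names are not reported here. The compared libraries and the gene lists were chosen with earlier results of these data known. In counts simulated for 14029 genes, the test of the combination against the high dose found 100 of 100 genes changed by a log2 FC of 1.5 and 89 of 100 changed by 1.2. The simulation used the same spread for all genes, left out genes of low mean count and had no axis of transcript length. It therefore does not give the power of the test in these data. Alternatives covered scaling, filters, the fold limit, a replicate block, DESeq2 1.42.0, and libraries left out. Leaving out combination replicate 1 and high-dose replicate 2 together was added after seeing the data. Replicates come from 3 independent experiments per the study, but the labels do not tie replicate numbers to them. Same-numbered libraries of the nilotinib and lapatinib combinations deviated together (correlations of 0.93, 0.64 and 0.48). However, lapatinib combination replicate 2 followed nilotinib combination replicate 3 more closely (0.82), and replicate 3 of the former followed replicate 2 of the latter (0.59). The correlations therefore do not settle whether the numbers pair these libraries. With a replicate block the 5 named genes that differed between the combinations still passed the test. Genes with an adjusted p under 0.05 between the combinations numbered 235 with all groups fitted. There were 5 with only those groups fitted and 64 to 358 with 1 library left out. Whether the named genes were among these is not reported here.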

Additional observations from a re-analysis of the deposited data

Results flagged for a closer look

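Of the named genes that differed between the nilotinib combination and 1 µM THZ531, 5 also differed between the nilotinib and lapatinib combinations by edgeR's quasi-likelihood test of that difference. CXCL8 had a log2 difference of -0.96 (nilotinib less lapatinib combination, adjusted p = 0.00449) and EVI2A of -0.79 (adjusted p = 0.0134). PTGS2 had a log2 difference of -1.41 (adjusted p = 0.0147) at under 2 CPM, and TNFAIP8 of 0.79 (adjusted p = 0.00621). CDKN1A had a log2 difference of -0.61 (adjusted p = 0.00216).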

How the results depend on the processing

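For the combination against 1 µM THZ531, leaving out 1 library gave 246 to 310 lower and 62 to 269 higher genes, and leaving out combination replicate 1 and high-dose replicate 2 gave 89 higher genes. The counts were 7 lower and 0 higher with glmTreat, 1071 and 947 at a log2 FC limit of 0.5, and 2084 and 1803 with no limit. After taking off nilotinib alone, the counts were 122 lower and 240 higher with mitochondrial scaling, 185 to 233 lower and 51 to 292 higher with 1 library left out, and 96 higher with both left out. Between the combinations, the higher count was 1 with RLE size factors, at least 10 counts in every library or halved counts, and 4 with library size alone, no filter or DESeq2. The lower count was 4 with mitochondrial scaling, only the compared groups gave 1 lower and 0 higher, and leaving out 1 library gave 3 to 13 lower and 0 to 5 higher. For nilotinib alone, mitochondrial scaling gave 3 higher genes, halved counts 25 lower, only the compared groups 9 lower and 16 higher, DESeq2 72 and 194, and 1 library left out 1 to 14 and 6 to 63. For 0.1 µM THZ531 alone, library size alone gave 190 higher genes, mitochondrial scaling 240 lower and 41 higher, only the compared groups 1043 and 510, DESeq2 558 higher, and 1 library left out 351 to 477 and 114 to 156. The cause of these shifts was not tested. No named gene that was called changed sign, while IL6 (-0.48 to 0.0088), COL1A1 (-0.24 to 0.11) and ABCG2 (-0.14 to 0.046), which did not pass the test, were among those that did. Of the values for single genes and lists 1715 stayed on their side of the threshold, 45 became weaker, 6 stronger and 22 moved.

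Same-numbered combination and high-dose libraries did not deviate together (correlations of -0.86 to -0.07 over 5155 genes). The labels do not say if they share an experiment, and these correlations do not settle it. The replicate block gave 270 lower and 143 higher genes against 1 µM THZ531, and 26 lower and 61 higher for nilotinib alone. Same-numbered nilotinib and DMSO libraries had correlations of 0.26, 0.24 and -0.56. The block moved no other count by over 1.5 times. Few counts limit many calls, as only 86 of 266 lower genes reached a mean log2 CPM of 1.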
